A study of Mus musculus with 6 samples.

Results

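The genes described here are the Pax, Six-family and Eya progenitor factors of skeletal muscle, followed in differentiating C2C12 cells with hairpins against the pyruvate kinase gene Pkm. They were taken by name from the deposited expression table: the paired-box genes Pax3 and Pax7, the sine oculis homeobox genes Six2, Six4 and Six5, and the eyes absent genes Eya1, Eya2, Eya3 and Eya4. Of these 9 genes, 8 were analysed out of 17558 genes in all, and Six2 was not analysed here. Eya2 had 0 counts in all 6 libraries, so 7 genes had a count and were tested. The rule is a list of names and uses no measured value, although the list was drawn up with earlier results of these data known.

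C2C12 is an immortalized mouse myoblast line that leaves the cell cycle and fuses into myotubes when serum is withdrawn. RNA was sequenced in 3 groups of 2 libraries, all of the same line, grown in 10% fetal bovine serum and then kept for 48 h in differentiation medium with 2% horse serum and an insulin, transferrin and selenium supplement. The control group, labelled WT, stably carried a scrambled hairpin with no target (shScr). The other groups stably carried a hairpin against 1 splice form of Pkm and are labelled Pkm1 Knockdown (shPkm1) and Pkm2 Knockdown (shPkm2). The labels do not say whether the 2 libraries of a group came from separate cultures, whether a line was 1 clone, or which hairpin sequences were used.

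Pax3 and Pax7 are transcription factors with a paired domain and a homeodomain. They mark muscle progenitors in the embryo and satellite cells in adult muscle, lie upstream of Myf5 and Myod1, and are normally switched off as myoblasts differentiate. Six-family proteins are homeodomain factors that bind the MEF3 element found in promoters such as that of myogenin. They activate transcription together with Eya proteins, which bring a transactivation domain and a tyrosine phosphatase domain but do not bind DNA themselves. In muscle precursors the Six-family and Eya proteins act beside and upstream of Pax3 and the myogenic regulatory factors.

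Promoter sequence was looked up because Six4 and Eya4 were higher in both Pkm hairpin groups while Eya3, their partner in the same network, was not. RefSeq promoter windows on GRCm38.p6, the build that the name mm10 in the submitters' processing notes refers to, were matched for 6 of the 9 genes. Each covers the 250 bases before the annotated start used. For Six4 and Eya4, 2 starts are listed each, and those used are chr12:73113425 and chr10:23349943. Both lie inside the gene ranges given below, which reach 73114031 and 23350838. The printed stretches of Six4 and Eya4 thus also lie within the gene range. Only stretches outside annotated exons are printed, 5′ to 3′ on the strand of the gene, with capitals marking the motif matches described after them. They lie at chr12:73113457-73113675 on the minus strand for Six4, chr7:19094294-19094543 on the plus strand for Six5, chr4:132638796-132638986 on the plus strand for Eya3 and chr10:23350137-23350193 on the minus strand for Eya4.
Six4: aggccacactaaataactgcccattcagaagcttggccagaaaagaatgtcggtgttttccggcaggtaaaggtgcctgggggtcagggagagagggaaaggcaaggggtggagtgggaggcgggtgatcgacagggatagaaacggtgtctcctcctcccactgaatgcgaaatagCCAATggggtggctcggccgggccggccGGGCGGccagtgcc
Six5: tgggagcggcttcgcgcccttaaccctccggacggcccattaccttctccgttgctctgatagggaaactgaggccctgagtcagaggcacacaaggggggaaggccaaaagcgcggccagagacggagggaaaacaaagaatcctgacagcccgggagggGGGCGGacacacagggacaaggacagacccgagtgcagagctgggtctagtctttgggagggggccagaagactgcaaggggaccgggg
Eya3: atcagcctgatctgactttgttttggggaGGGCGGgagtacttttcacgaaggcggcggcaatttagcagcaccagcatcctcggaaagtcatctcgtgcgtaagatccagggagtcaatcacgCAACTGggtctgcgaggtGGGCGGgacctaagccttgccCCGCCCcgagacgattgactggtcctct
Eya4: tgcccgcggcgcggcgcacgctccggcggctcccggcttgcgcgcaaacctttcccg

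The windows were searched on both strands for the E-box CANNTG bound by myogenic factors, for its stricter form CAGCTG, for the MEF3 core TCAGGTT bound by Six-family proteins, for paired TAAT sites bound by paired homeodomains, for the CCAAT box and for the GC box with the letters GGGCGG. The stricter E-box is a special case of the general one, so these 2 searches overlap. None of the 6 windows held the stricter E-box, the MEF3 core or paired TAAT sites, which were found in 13.0%, 3.49% and 0.384% of all 32851 windows of the same length. Eya3 held the single E-box, at 126 bases before its start, and 66.2% of all windows held one. CCAAT boxes were found in the windows of Six4, at 73 bases before the start used, and of Six2, and in 33.8% of all windows. Each of the 6 windows held at least 1 GC box against 32.7% of all windows. Eya3 held 3 of them, and the one of Eya4 lies under an exon and is not printed. A match describes letters only, and a missing match says nothing about binding elsewhere.

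Libraries held between 18216896 and 19796036 estimated counts. The 2 shScr libraries differed more from each other than those of the other groups, with a chi-square per degree of freedom of 31.0 against 6.01 for shPkm1 and 6.67 for shPkm2. The hairpins were checked on Pkm first. The transcript of the Pkm1 form lay at 980.1 and 957.9 CPM (counts scaled to library size) in shScr, at 314.5 and 299.8 CPM in shPkm1 and at 313.5 and 333.7 CPM in shPkm2, and was lower in both hairpin groups (edgeR adjusted p = 0.0027 and 0.0012). The transcript of the Pkm2 form lay at 1927 and 2468 CPM in shScr, at 1656 and 1895 CPM in shPkm1 and at 3330 and 3452 CPM in shPkm2 (edgeR adjusted p = 0.322 and 0.0656). It was not lower in the libraries labelled shPkm2, which goes against that label, and every direction given for those libraries rests on the label alone. The 6 myoblast and early muscle markers had counts in every library, with a summed level of 9377 to 9980 CPM in shScr, 5724 to 6371 CPM in shPkm1 and 1895 to 1939 CPM in the libraries labelled shPkm2. Of 15 markers of other lineages, 9 to 13 had a count in a library, and they summed to 266.3 to 275.2 CPM in shScr, 238.1 to 258.1 CPM in shPkm1 and 159.8 to 189.2 CPM in shPkm2, mostly the surface antigen gene Ly6a. The neural crest factor gene Sox10 was at 0 in all 6 libraries.

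Among the progenitor factors, Eya1, Eya4 and Six4 were higher in both Pkm hairpin groups than in shScr, Six5 was higher and Eya3 slightly lower in shPkm1, and the libraries labelled shPkm2 held more Pax3 and less Pax7. Of the 7 genes tested, 5 passed an adjusted p of 0.05 in each comparison by edgeR's quasi-likelihood test. In shPkm1 against shScr 4 were higher and 1 lower. Of all 12643 genes tested 63.1% passed, 31.8% higher and 31.4% lower. In shPkm2 against shScr 4 were higher and 1 lower, against 68.0% of all genes, 33.9% higher and 34.2% lower. In shPkm2 against shPkm1 3 were higher and 2 lower, against 53.0% of all genes, 25.7% higher and 27.3% lower. These shares are near the background, so the number of calls says nothing particular about these factors. Pax3 passed the filter on low counts only through the libraries labelled shPkm2, so that it had to differ there. Pax7 passed it only through shScr and shPkm1, where it was high. Without these 2 genes, 5 members were tested: 4 were higher and 1 lower in shPkm1 against shScr, 3 and 0 in shPkm2 against shScr, and 2 and 1 in shPkm2 against shPkm1. The median log2 fold change of the tested members was 0.42, 0.49 and 0.25 in the 3 comparisons, beside 0.00, 0.01 and 0.01 for all genes tested. Without Pax3 it was 0.53, 0.35 and 0.16, and without Pax3 and Pax7 0.64, 0.49 and 0.25. Scaling by library totals alone shifted the median of all genes by 0.20, 0.33 and 0.13 on the log2 scale, and raised the share of calls that were higher from 50.3%, 49.8% and 48.4% to 65.8%, 69.3% and 61.3%. The same scaling gave 4 members higher and 0 lower in shPkm1 against shScr, 6 and 1 in shPkm2 against shScr, and 4 and 2 in shPkm2 against shPkm1. In cultures such as these, fewer cells that express a gene and less RNA of it per cell cannot be told apart.

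**Figure D1:**
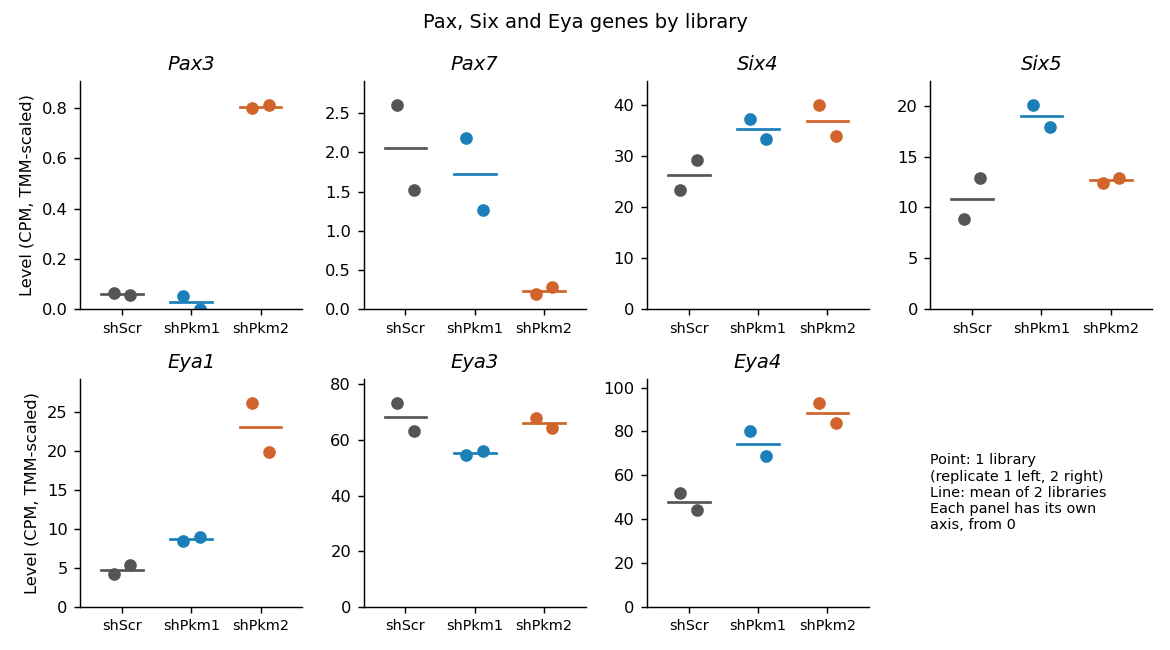
Level of each of the 7 genes with a count, in TMM-scaled CPM on a linear axis from 0, for the 2 libraries of shScr, shPkm1 and shPkm2 (points) with the group mean (line). Eya1 rises in steps from 4.25 to 26.17 CPM without overlap between groups, Pax3 is near 0 outside shPkm2, and Pax7 is lowest in shPkm2.

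Pax7, the gene of the paired-box factor that maintains satellite cells (NCBI gene 18509, chr4:139737059-139833530), was present at a low level and was lowest in the libraries labelled shPkm2. It had 41 and 27 estimated counts in shScr, 41 and 25 in shPkm1, and 4 and 6 in shPkm2. The shScr and shPkm1 libraries overlapped, and both shPkm2 libraries lay below all the others. In CPM the means were 2.06 ± 0.759 in shScr, 1.72 ± 0.650 in shPkm1 and 0.237 ± 0.0693 in shPkm2 (SD, n = 2 each). Pax7 was 8.43-fold lower in shPkm2 than in shScr (log2 fold change -3.08, SE 0.493) and 7.08-fold lower than in shPkm1 (log2 fold change -2.82, SE 0.498). These values are a description, since Pax7 entered the test only through the groups where it was high. Between shPkm1 and shScr the log2 difference was -0.25 with a 95% interval from -1.03 to 0.53, and no difference was detectable at this depth.

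Pax3, the paralogue of Pax7 that acts in migrating embryonic progenitors (NCBI gene 18505, chr1:78101267-78197136), moved the other way at counts that were lower still. It had 1 and 1 counts in shScr, 1 and 0 in shPkm1, and 17 and 17 in the libraries labelled shPkm2. Both shScr and shPkm1 lay under the floor of 3 counts per library, so a fold between them is not given. Against that floor, the shPkm2 mean of 0.806 ± 0.0077 CPM (SD, n = 2) was at least 4.48-fold higher than shScr and at least 5.17-fold higher than shPkm1. These values are a description, since Pax3 entered the test only through the group where it was high. The level is small beside other members: Pax3 reached 0.45 and 0.42 TPM, a unit that also corrects for transcript length, in shPkm2, where Eya1 stood at 14.74 and 10.74 TPM. Summed over both Pax genes, the 6 libraries spanned 0.44 to 0.84 TPM, and Pax3 made up 86.5% and 80.8% of that sum in shPkm2 and 0 to 4.55% elsewhere. Of the neural crest markers, genes of another tissue that uses Pax3, 2 were analysed. Sox10 was at 0 in all libraries, and Tfap2a had 0 and 0 counts in shScr, 25 and 28 in shPkm1, and 0 and 2 in shPkm2. Their part in the Pax3 level was not tested.

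Six4, which encodes a homeodomain factor expressed in muscle precursors and able to bind MEF3 elements (NCBI gene 20474, chr12:73099609-73114031), was modestly higher in both Pkm hairpin groups. It measured 23.39 and 29.15 CPM in shScr, 37.27 and 33.37 CPM in shPkm1, and 39.92 and 33.92 CPM in shPkm2. Both shScr libraries lay below the other 4, and the shPkm1 and shPkm2 libraries overlapped. The log2 fold change was 0.42 (SE 0.131, edgeR adjusted p = 0.0122) in shPkm1 and 0.49 (SE 0.130, edgeR adjusted p = 0.0045) in shPkm2, each against shScr. Between the 2 hairpin groups it was 0.06 with a 95% interval from -0.21 to 0.34. The shPkm1 call was lost without shScr replicate 1 (0.28, edgeR adjusted p = 0.0541) and without shPkm1 replicate 1 (0.36, edgeR adjusted p = 0.103). The shPkm2 call was lost without shPkm2 replicate 1 (edgeR adjusted p = 0.0657).

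Six5, whose gene lies next to the myotonic dystrophy kinase gene Dmpk (NCBI gene 20475, chr7:19094544-19098549), was highest in shPkm1. It measured 8.81 and 12.88 CPM in shScr, 20.02 and 17.9 CPM in shPkm1, and 12.43 and 12.93 CPM in shPkm2. Both shPkm1 libraries lay above the other 4, while shPkm2 and shScr overlapped. Six5 rose 1.74-fold in shPkm1 against shScr (log2 fold change 0.80, SE 0.162, edgeR adjusted p = 0.00084), and this held in all 15 alternative analyses. It was lower in shPkm2 than in shPkm1 (log2 fold change -0.58, SE 0.157, edgeR adjusted p = 0.0070), a call lost without shPkm1 replicate 1 (-0.51, edgeR adjusted p = 0.0741) and without shPkm2 replicate 1 (-0.56, edgeR adjusted p = 0.0526). For shPkm2 against shScr the log2 difference was 0.22 with a 95% interval from -0.14 to 0.58. That value rested on the shScr libraries: it was -0.02 without shScr replicate 1 and 0.53 without shScr replicate 2. It also moved with the scaling, and with library totals alone it was 0.54 (edgeR adjusted p = 0.0183). Limma on log2(FPKM + 1) and log2(FPKM + 0.1) gave 0.453 and 0.555 (limma adjusted p = 0.0306 and 0.0272). Dmpk and Dmwd, the neighbours on chromosome 7, went the other way from Six5 in shPkm1. Dmpk fell from 536.5 and 538.6 CPM in shScr to 220.7 and 226.4 CPM in shPkm1 and 89.77 and 98.67 CPM in shPkm2 (log2 fold changes -1.27 and -2.51 against shScr, edgeR adjusted p = 2.60e-07 and 2.67e-10). Dmwd had log2 fold changes of -0.61 and -1.24 (edgeR adjusted p = 0.00017 and 2.20e-07). Whether counting used strand is not given in the sources used here, so reads shared by overlapping neighbours cannot be told apart.

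**Figure D2:**
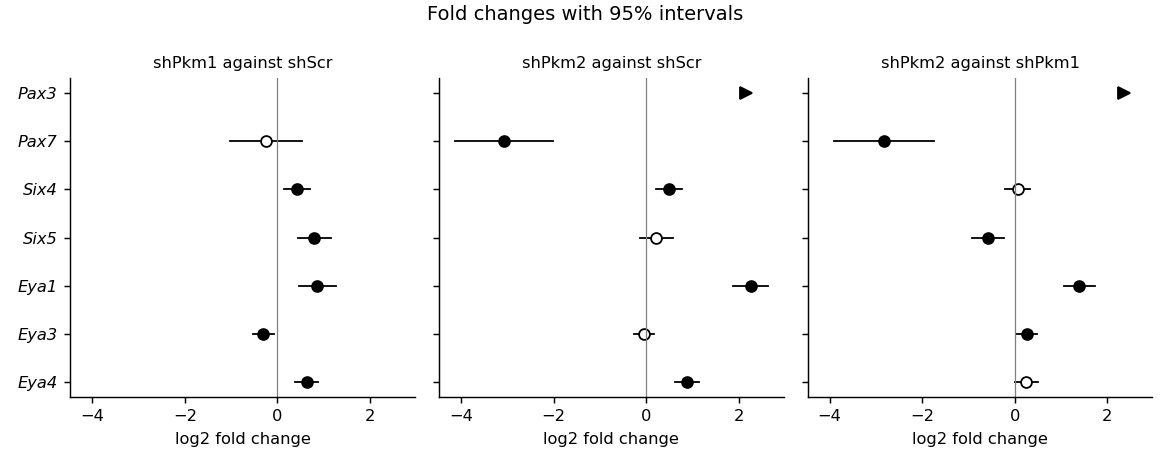
Log2 fold changes of the tested genes in shPkm1 against shScr, shPkm2 against shScr and shPkm2 against shPkm1, with 95% intervals. Filled points passed an adjusted p of 0.05, open points did not, and arrowheads mark the lower bounds for Pax3 (at least 4.48-fold and 5.17-fold). Eya1 lies to the right of 0 in all 3 panels and Pax7 to the left in both panels with shPkm2.

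Eya1, which encodes the Eya protein best known from ear, kidney and muscle precursor development (NCBI gene 14048, chr1:14168953-14311035), showed the largest differences among the Eya genes. It measured 4.25 and 5.31 CPM in shScr, 8.52 and 8.95 CPM in shPkm1, and 26.17 and 19.94 CPM in shPkm2. No 2 groups overlapped, and the order shScr, shPkm1, shPkm2 held for every pair of libraries. Eya1 was 1.82-fold higher in shPkm1 than in shScr (log2 fold change 0.86, SE 0.188, edgeR adjusted p = 0.0013). It was 4.80-fold higher in shPkm2 than in shScr (log2 fold change 2.26, SE 0.174, edgeR adjusted p = 1.00e-07), a value above that of 97.5% of genes tested. The direct comparison of shPkm2 with shPkm1 gave a 2.64-fold difference (log2 fold change 1.40, SE 0.158, edgeR adjusted p = 7.05e-06). These 3 calls held in all 15 alternatives. The summed level of the nephron progenitor markers, genes of another tissue that uses Eya1, was 4.25 and 4.35 CPM in shScr, 11.45 and 12.94 CPM in shPkm1, and 4.52 and 4.39 CPM in shPkm2. The sum was mostly Osr1 in shPkm1, at 10.91 and 12.44 CPM. Cited1, on the same list, was lowest there, at 0.266 and 0.354 CPM, and stood at 1.90 and 2.09 CPM in shScr and 2.21 and 1.96 CPM in shPkm2. Their part in the Eya1 level was not tested.

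Eya4, a member of the family expressed in muscle, inner ear and heart (NCBI gene 14051, chr10:23102962-23350838), was higher in both hairpin groups. It measured 51.78 and 44.07 CPM in shScr, 80.08 and 68.76 CPM in shPkm1, and 92.92 and 83.88 CPM in shPkm2. The groups did not overlap. Eya4 rose 1.55-fold in shPkm1 (log2 fold change 0.64, SE 0.116, edgeR adjusted p = 0.00037) and 1.85-fold in shPkm2 (log2 fold change 0.88, SE 0.116, edgeR adjusted p = 1.61e-05) against shScr, in all 15 alternatives. Between shPkm2 and shPkm1 the log2 difference was 0.25 with a 95% interval from 0.01 to 0.49, which did not pass after adjustment (edgeR adjusted p = 0.0803) but passed in 7 of the 15 alternatives.

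Eya3, the member expressed most evenly over tissues (NCBI gene 14050, chr4:132639025-132724765), showed the smallest differences from shScr among the Eya genes with counts. It measured 73.21 and 63.1 CPM in shScr, 54.47 and 56.07 CPM in shPkm1, and 67.83 and 64.22 CPM in shPkm2. The shPkm1 libraries lay below the other 4, and shPkm2 overlapped shScr. Eya3 was 1.23-fold lower in shPkm1 than in shScr (log2 fold change -0.30, SE 0.103, edgeR adjusted p = 0.0208). That call was lost with library totals (-0.10, edgeR adjusted p = 0.391) and without shScr replicate 1, shPkm1 replicate 1 or shPkm1 replicate 2 (edgeR adjusted p = 0.121, 0.137 and 0.0808). In shPkm2 against shScr the log2 difference was -0.05 with a 95% interval from -0.27 to 0.18, and its sign turned with library totals, to 0.28 (edgeR adjusted p = 0.0225). The difference between shPkm2 and shPkm1, 0.26 (SE 0.102, edgeR adjusted p = 0.0493), sat at the threshold and passed in 6 of 15 alternatives. Eya2 (NCBI gene 14049, chr2:165595028-165771727) had 0 counts in each library, which allows at most 0.141 to 0.190 CPM per library and covers counting error only.

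**Figure D3:**
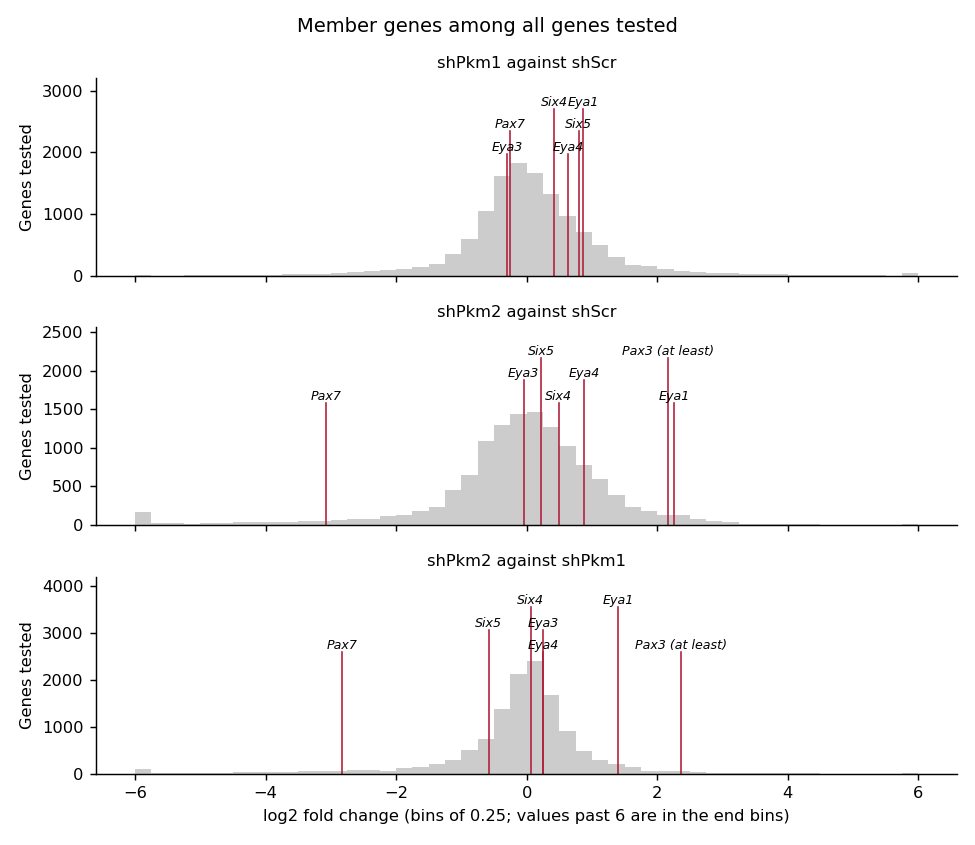
Histograms of the log2 fold changes of all 12643 genes tested in each comparison (grey, bins of 0.25 on the log2 scale, values past 6 in the end bins) with the tested members marked by vertical lines; Pax3 is drawn at its lower bound. Most members lie inside the bulk of all genes, while Eya1 and Pax3 lie to the right and Pax7 to the left in the panels with shPkm2.

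Set side by side per length, the Eya genes were the most abundant of the 3 families, and their composition differed between groups. Summed over the family, they stood at 47.82 and 43.73 TPM in shScr, 63.88 and 54.57 TPM in shPkm1, and 86.15 and 75.13 TPM in shPkm2. Eya3 was the leading Eya gene of shScr with 69.1% and 68.3% of the family's TPM. Its share was 48.4% and 50.3% in shPkm1 and 43.8% and 46.9% in shPkm2. Eya4 held 27.8% and 27.6% in shScr, 44.7% and 41.3% in shPkm1, and 39.1% and 38.8% in shPkm2. The Eya1 share was 3.07% and 4.07% in shScr, 6.93% and 8.37% in shPkm1, and 17.1% and 14.3% in shPkm2. These shares are free of any scaling between libraries, but the TPM of Eya3 depends on how its counts were split between transcripts. In shScr replicate 1 the transcript XM_006538540.3 held 25.3% of the Eya3 counts and 19.24 of its 33.04 TPM. In estimated counts Eya4 lay above Eya3 in each hairpin library and below it in both shScr libraries. Both the Eya4 and the Eya1 share were larger in every hairpin library than in either shScr library, and the Eya1 share was larger in both shPkm2 libraries than in both shPkm1 libraries. The ratio of Eya1 to Eya3 was 0.0445 and 0.0596 in shScr, 0.143 and 0.167 in shPkm1, and 0.391 and 0.305 in shPkm2. The shares are given as values and were not tested; an exact permutation of 2 libraries against 2 gives no p under 0.333.

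The Six-family genes analysed summed to 9.04 and 13.73 TPM in shScr, 24.22 and 20.92 TPM in shPkm1, and 21.07 and 18.8 TPM in shPkm2. All 4 hairpin libraries lay above both shScr libraries. Six4 made up 54.2% and 50.8% of that sum in shScr, 44.7% and 46.4% in shPkm1, and 59.2% and 54.5% in shPkm2. Six4 thus held the smaller part of the 2 genes in shPkm1 and the larger part in the other groups. TPM is a share of all RNA in a library without TMM scaling, so sums across libraries move with that choice.

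**Figure D4:**
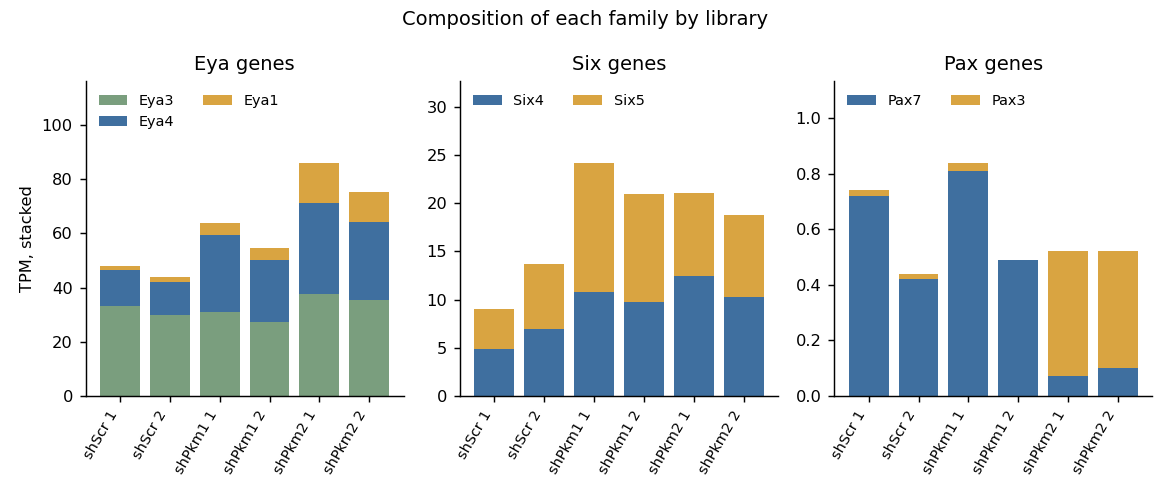
TPM of the Eya, Six-family and Pax genes stacked for each library on linear axes from 0, one panel per family with its own axis. The Eya1 and Eya4 parts are larger in the 4 hairpin libraries than in shScr, Eya3 stays between 27.45 and 37.71 TPM, and the Pax panel, at most 0.84 TPM, changes from mainly Pax7 to mainly Pax3 in shPkm2.

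The deposited table lists 41 RefSeq transcripts for these genes, of which 37 had a count and 24 were tested one by one. In shPkm1 against shScr 2 were higher and 0 lower, beside 10.8% of all 33433 transcripts tested, 5.47% higher and 5.36% lower. In shPkm2 against shScr 2 were higher and 0 lower, beside 17.2% of all transcripts, 7.91% higher and 9.32% lower. In shPkm2 against shPkm1 0 passed by edgeR, beside 7.91% of all transcripts, 2.87% higher and 5.04% lower. At an unadjusted p under 0.05 edgeR gave 7, 7 and 3 transcripts in these comparisons, and DESeq2 called 6, 7 and 1 after adjustment. The Eya1 transcript NM_010164.2 had 0 and 0 estimated counts in shScr, 24.95 and 48.04 in shPkm1, and 48.18 and 107.4 in shPkm2. Against a floor of 3 counts per library it was at least 10.7-fold higher in shPkm1 and at least 21.0-fold higher in shPkm2. The Eya4 transcript XM_006512530.3 had 0 and 0 counts in shScr, 39.21 and 22.47 in shPkm1, and 147.8 and 82.85 in shPkm2, at least 9.08-fold and at least 31.0-fold higher. These are the 2 transcripts called in each comparison with shScr. Both passed the filter only through the hairpin groups, so that they had to differ, and the calls are a description. Leaving out any 1 of the 6 libraries gave 0 to 1 calls in shPkm1 against shScr. In shPkm2 against shScr 1 call was left without either shPkm1 library and 0 without either shPkm2 library.

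Transcripts of a gene share most of their reads, and replicates divided the gene's counts differently. All 94 Eya1 counts of shScr replicate 2 were assigned to 2 transcripts that had 0 counts in shScr replicate 1, NM_001310459.1 with 31.27 and XM_011238344.2 with 62.73. Eya3 was steadier, with NM_210071.2 holding 71.3% and 72.5% of the gene's counts in shScr, 81.8% and 85.1% in shPkm1, and 84.6% and 82.6% in shPkm2. Its share was larger in each hairpin library than in either shScr library. The Eya3 transcript NM_010166.3 had 39.7 and 61.62 counts in shScr and 0 in the other 4 libraries, at least 19.0-fold and at least 20.8-fold lower, which did not pass (edgeR adjusted p = 0.0782 and 0.0600). This transcript passed the filter only through shScr and had to be lower elsewhere, so these values are a description. The leading Eya4 transcript, XM_006512522.3, had 253.2 and 438.6 counts in shScr, 879 and 638.6 in shPkm1, and 831.4 and 755.3 in shPkm2 (edgeR adjusted p = 0.113 and 0.112 against shScr). The leading Six4 transcript, NM_011382.2, had 226.7 and 341.3 counts in shScr, 349.9 and 462.5 in shPkm1, and 513.7 and 476.1 in shPkm2. The leading Six5 transcript, NM_011383.1, held 79.8% to 92.0% of that gene's counts in the 6 libraries.

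**Figure D5:**
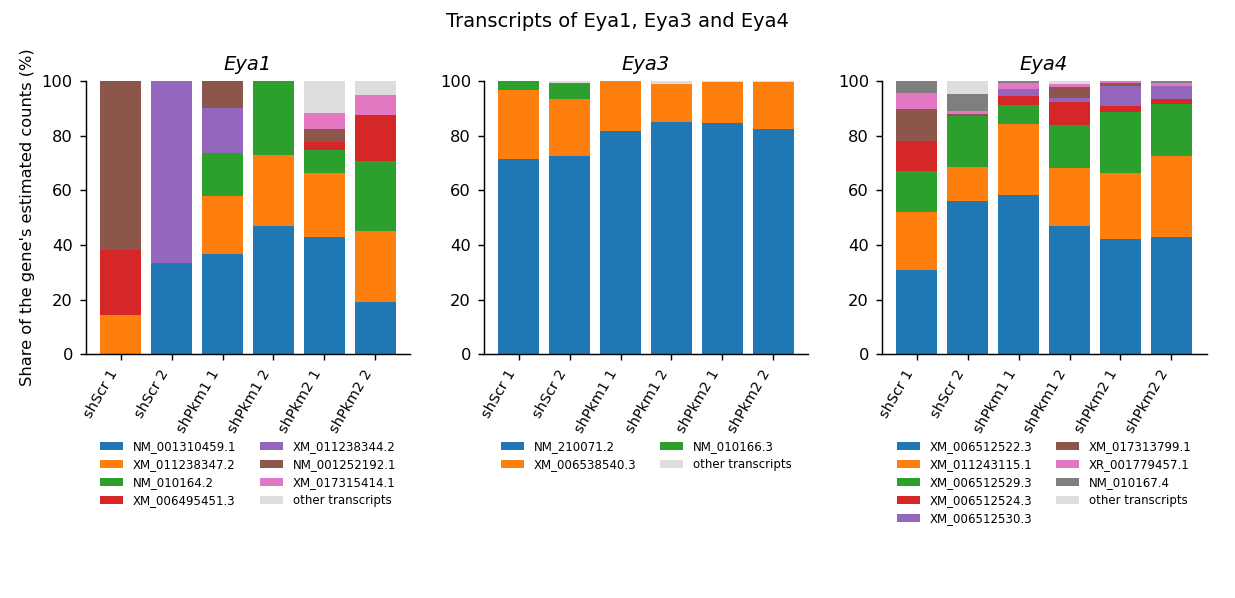
Share of each Eya gene's estimated counts assigned to its RefSeq transcripts (percent, stacked to 100) in each library; transcripts with a mean under 10 counts are grouped as other. The 2 shScr libraries share no listed Eya1 transcript, whereas NM_210071.2 leads Eya3 in all 6 libraries with 71.3% to 85.1%.

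Other genes of these families were at or near 0 counts. Of 11 further Pax, Six-family and Dach genes, 8 were analysed and 0 passed the filter on low counts, and the highest was Pax6 with 1 to 13 counts.

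Genes of proteins that work with Pax, Six-family and Eya factors were also followed. Of 16 such cofactor genes, all tested, 10 were higher and 2 lower in shPkm2 against shScr, 5 higher and 5 lower in shPkm1 against shScr, and 8 higher and 0 lower in shPkm2 against shPkm1. Over all genes tested the shares were 33.9% higher and 34.2% lower, 31.8% and 31.4%, and 25.7% and 27.3% in that order. Whether the list differs from other genes was not tested. Their median log2 fold changes were 0.56, 0.12 and 0.55 in that order. With library totals alone the counts were 12 and 1, 9 and 3, and 12 and 0. Paxbp1, the adaptor that links Pax3 and Pax7 to histone H3 lysine methyltransferases, measured 13.37 and 11.75 CPM in shScr, 30.03 and 22.4 CPM in shPkm1, and 33.37 and 29.39 CPM in shPkm2, and rose by log2 1.06 and 1.32 (edgeR adjusted p = 4.85e-05 and 4.27e-06). Tle2, a Groucho-type corepressor gene, rose from 6.85 and 9.66 CPM in shScr to 22.79 and 19.11 CPM in shPkm1 and 23.21 and 22.33 CPM in shPkm2. The corepressor gene Tle1 was higher in shPkm2 than in shPkm1 (log2 fold change 0.81, edgeR adjusted p = 0.00021).

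The cofactor list also held chromatin genes. H2ax, the histone variant whose tyrosine phosphate Eya proteins remove, measured 45.89 and 58.02 CPM in shScr, 55.16 and 57.13 CPM in shPkm1, and 130.7 and 139.2 CPM in shPkm2. Both shPkm2 libraries stood above all others, and H2ax was higher there than in shPkm1 by log2 1.27 (edgeR adjusted p = 8.87e-07). In shPkm1 against shScr the log2 difference was 0.11 (edgeR adjusted p = 0.425). Mdc1, the mediator that binds phosphorylated H2ax, rose by log2 0.81 in shPkm1 and 1.51 in shPkm2 against shScr (edgeR adjusted p = 3.63e-05 and 7.13e-08). In the other direction, Sobp, the sine oculis binding protein gene, fell from 49.44 and 44.74 CPM in shScr to 19.17 and 19.62 CPM in shPkm1 and 33.0 and 31.78 CPM in shPkm2. Its shPkm2 call was lost with library totals (-0.21, edgeR adjusted p = 0.0875). The same call was lost by limma on log2(FPKM + 1) and log2(FPKM + 0.1) (-0.17 and -0.19, limma adjusted p = 0.171 and 0.182). Daxx, which encodes a Pax3-binding corepressor, had log2 fold changes of -1.11 and -1.21 (edgeR adjusted p = 7.07e-07 and 1.76e-07).

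Of 18 genes described as targets of Pax or Six-family proteins, 15 were tested. In shPkm1 against shScr 4 were higher and 9 lower, in shPkm2 against shScr 6 were higher and 9 lower, and in shPkm2 against shPkm1 6 were higher and 7 lower. Over all genes tested 31.8% were higher and 31.4% lower, 33.9% and 34.2%, and 25.7% and 27.3%. The medians of the targets were -0.43, -1.68 and -0.20 on the log2 scale. Myog, the myogenin gene with a MEF3 element in its promoter, measured 2336 and 1988 CPM in shScr, 1097 and 1162 CPM in shPkm1, and 49.19 and 56.87 CPM in shPkm2, with log2 fold changes of -0.94 and -5.35 (edgeR adjusted p = 3.19e-05 and 1.06e-11). Ckm, the muscle creatine kinase gene, measured 2394 and 1341 CPM in shScr, 232 and 301.8 CPM in shPkm1, and 7.16 and 5.87 CPM in shPkm2. Myod1, a target of Pax3, Pax7 and Six-family factors, had log2 fold changes of -0.90 and -2.22.

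Other targets were higher. Myf5, a direct Pax3 and Pax7 target, measured 18.19 and 18.7 CPM in shScr, 22.95 and 21.03 CPM in shPkm1, and 62.42 and 60.55 CPM in shPkm2, with log2 fold changes of 0.25 (edgeR adjusted p = 0.0588) and 1.74 (edgeR adjusted p = 9.39e-09). Ccnd1, the cyclin D1 gene, rose by log2 2.12 and 3.06, and Id3, an inhibitor of myogenic factors and Pax7 target, rose by log2 1.19 and 2.38. Ezr, the ezrin gene, was lower in shPkm1 and higher in shPkm2 against shScr (log2 fold changes -0.43 and 0.84, edgeR adjusted p = 0.0056 and 2.18e-05). The shPkm1 call was lost with library totals (-0.23, edgeR adjusted p = 0.0842) and without shPkm1 replicate 1 (-0.34). Limma on log2(FPKM + 1) and log2(FPKM + 0.1) lost it too (-0.22 and -0.23, limma adjusted p = 0.0840 and 0.0801). Fgfr4, a growth factor receptor gene bound by Pax3, had 23 and 22 counts in shScr, 223 and 229 in shPkm1, and 7 and 10 in shPkm2. It was higher in shPkm1 (log2 fold change 3.12). The log2 difference of -1.72 in shPkm2 is a description, since Fgfr4 entered the test only through the groups where it was higher.

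Of 20 satellite cell and myoblast markers, 18 were tested, and they were mixed. In shPkm1 against shScr 5 were higher and 10 lower, in shPkm2 against shScr 4 were higher and 9 lower, and in shPkm2 against shPkm1 5 were higher and 10 lower, beside the same shares of all genes, 31.8% and 31.4%, 33.9% and 34.2%, and 25.7% and 27.3%. The medians of the markers were -0.40, -0.42 and -0.53 on the log2 scale. Cd34, a surface marker of quiescent satellite cells, had 8.18 and 7.46 CPM in shScr, 165 and 147.2 CPM in shPkm1, and 18.5 and 19.94 CPM in shPkm2, a rise of log2 4.32 and 1.30 (edgeR adjusted p = 3.36e-11 and 1.08e-06). Vcam1, an adhesion molecule of satellite cells, rose by log2 1.14 and 1.67. Heyl, a Notch target gene, rose by log2 1.55 in shPkm1 and fell by 1.54 on the log2 scale in shPkm2.

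Several markers fell beside Pax7 in the libraries labelled shPkm2. Spry1, the growth factor feedback inhibitor that keeps satellite cells quiescent, had 15.21 and 11.52 CPM in shScr, 13.15 and 13.85 CPM in shPkm1, and 1.46 and 1.72 CPM in shPkm2 (log2 fold change -3.07 against shScr, edgeR adjusted p = 2.35e-08). Sox8, a satellite cell transcription factor gene, had log2 fold changes of -0.73 in shPkm1 and -2.79 in shPkm2. Itga7, the laminin receptor subunit of myoblasts, fell by 0.96 in shPkm1 and had a log2 fold change of -2.18 in shPkm2, and Des, the desmin gene, had log2 fold changes of -0.51 and -2.13. The Des call in shPkm1 was lost without shPkm1 replicate 1 (-0.41, edgeR adjusted p = 0.0862). Nes, the nestin gene, had log2 fold changes of -0.83 in shPkm1 and -1.155 in shPkm2. Sdc4, a satellite cell heparan sulfate proteoglycan gene, and Megf10, a receptor gene of proliferating myoblasts, were higher in shPkm2 than in shPkm1 by log2 0.87 and 0.67. Against shScr, both were lower in shPkm1 (log2 fold changes -0.64 and -0.54), and in shPkm2 the log2 differences were 0.23 and 0.13 (edgeR adjusted p = 0.0401 and 0.375). The Sdc4 call in shPkm2 was lost by DESeq2 (0.22, adjusted p = 0.0778). With no filter, only the groups compared or the replicate block it was lost too (edgeR adjusted p = 0.0556, 0.0653 and 0.0508). It was also lost when any 1 library other than shScr replicate 2 was left out (log2 differences from 0.215 to 0.252). The Megf10 call in shPkm1 was lost by limma on log2(FPKM + 1) (-0.31, limma adjusted p = 0.0536).

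Markers of other lineages were looked at in the same way. Of 18 listed, 8 were tested, with 6 higher and 2 lower in shPkm1 against shScr, 2 and 2 in shPkm2 against shScr, and 1 and 5 in shPkm2 against shPkm1. These include Tfap2a, which passed the filter only through shPkm1 and had to be higher there in both comparisons with that group. Cited1 passed it only through shScr and shPkm2 and had to be lower in shPkm1. It is among the genes lower in shPkm1 against shScr and is the only one higher in shPkm2 against shPkm1. Of all genes tested 63.1%, 68.0% and 53.0% passed in these comparisons. Osr1, a transcription factor gene of nephron and mesenchymal progenitors, rose by log2 2.46 in shPkm1 (edgeR adjusted p = 3.02e-07) and differed by log2 0.12 in shPkm2 (edgeR adjusted p = 0.673). Pdgfra, a receptor gene of mesenchymal cells, rose by log2 2.30 and 2.46. Dcn, the decorin gene, rose by log2 1.00 in shPkm1 and fell by 1.11 in shPkm2, and Ly6a had log2 fold changes of -0.62 and -0.97. Their part in the levels of the Pax, Six-family and Eya genes was not tested.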

How the data were processed

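RNA of 6 libraries was measured by sequencing, in 3 groups of 2 taken from the sample titles. Per the file headers, the deposited table holds 57920 RefSeq transcripts, each with an expected (estimated) count, FPKM and TPM in every library. The submitters' processing notes name HISAT, StringTie, Bowtie, RSEM, DESeq2 and the build mm10, with no versions or roles. About 1 in 2 of the deposited estimated counts is whole (47.98% to 50.74% per library). FPKM as deposited corrects for transcript length and depth. TPM as deposited corrects for length and has the same sum in each library. A further 9 columns of the authors' means were not used.

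Estimated counts were summed per NCBI gene number and rounded, and 17445 of 17558 genes matched a symbol. The other 113 held at most 0.148% of a library's counts. Genes were filtered with filterByExpr (minimum count 10, minimum total 15), scaled by TMM and tested with edgeR 4.0.16 (R 4.3.3) by the quasi-likelihood F-test, with all 6 libraries in 1 fit and Benjamini-Hochberg adjustment over all 12643 genes (threshold 0.05). CPM are TMM-scaled counts relative to library size. Transcripts were tested in the same way. The scripts were tested on simulated data. P-values measure only the spread between these libraries, which may be technical. Depth was 18216896 to 19796036 counts, and a count of 0 was read against a floor of 3 counts.

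The members and gene lists were chosen with earlier results of these data known. Members, Pkm, Myod1, Myog and Des were always named. Of each list, up to 2 genes higher and 2 lower per comparison were named, by the size of the change among called genes averaging 50 counts or more. Member transcripts were named at a mean of at least 10 counts. Sox10, Tfap2a, Cited1 and Pax6 fall outside this rule and were chosen after their values were seen. A gene that this rule names is not reported here. Alternatives were DESeq2 size factors, library totals, no filter, a minimum mean of 50, DESeq2 1.42.0, only the groups compared, a replicate block, limma 3.58.1 on log2(FPKM + 1) and log2(FPKM + 0.1), and each library left out. Same-numbered libraries did not deviate together (correlations -0.03, 0.04 and 0.05), so the numbers were not taken to pair them.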

Additional observations from a re-analysis of the deposited data

How the results depend on the processing

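Calls for Eya1 in all comparisons, for Eya4 against shScr and for Six5 in shPkm1 held in every alternative that gave a value. Pax3 and Pax7 entered the test only through the groups where they were high, so their calls are no sign of stability. Over all alternatives for single members, Pax3 and Pax7 included, 266 values kept direction and side of the threshold, 20 lost the call, 11 gained it and 11 changed sign. Both genes are also among the members counted below, except under the minimum mean of 50 counts. A mean of at least 50 counts removed Pax3 and Pax7 by construction and left 3 members called in shPkm2 against shScr and 2 in shPkm2 against shPkm1. Leaving out 1 library gave 3 to 5 members called in shPkm1 against shScr (3 without shScr replicate 1 or shPkm1 replicate 1), 4 to 6 in shPkm2 against shScr and 3 to 6 in shPkm2 against shPkm1 (3 without shPkm1 replicate 1 or shPkm2 replicate 1). For transcripts of members in shPkm1 against shScr, a mean of at least 50 counts gave 0 calls, DESeq2 6, fitting only the groups compared 0, and leaving out 1 library 0 to 1. In shPkm2 against shScr, library totals gave 4 transcripts, a mean of at least 50 counts 1, DESeq2 7 and leaving out 1 library 0 to 3; in shPkm2 against shPkm1 DESeq2 gave 1. The cause was not tested.

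Replicate numbers do not pair the libraries. With the replicate number as a block, members called numbered 5, 5 and 5, and transcripts called fell to 0 in shPkm1 against shScr and to 1 in shPkm2 against shScr; Eya4 in shPkm2 against shPkm1 then passed (edgeR adjusted p = 0.0434) and Eya3 no longer did (0.26, edgeR adjusted p = 0.0509).

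Signs changed only for differences that had not passed. In shPkm1 against shScr, leaving out 1 library gave Pax7 from -0.679 to 0.168, H2ax from -0.048 to 0.292, Tle1 from -0.311 to 0.171 and Spry1 from -0.171 to 0.228. Limma on log2(FPKM + 1) and log2(FPKM + 0.1) gave 0.007 and 0.032 for Pax7 and 0.035 and 0.041 for Tle1, and library totals gave 0.094 for Tle1. In shPkm2 against shScr, leaving out 1 library gave Eya3 from -0.147 to 0.066, Six5 from -0.023 to 0.527 and Megf10 from -0.053 to 0.341. Eya3 was 0.283 with library totals (adjusted p = 0.0225), the 1 such value that then passed, and 0.082 and 0.085 by limma. In shPkm2 against shPkm1, leaving out 1 library gave Six4 from -0.065 to 0.169 and Tle2 from -0.001 to 0.242, and Daxx was 0.032 with library totals and 0.029 and 0.031 by limma. Six5 in shPkm2 against shPkm1 lost its call by limma (adjusted p = 0.0712 and 0.0822). Depth limits Pax3, Pax7 and single transcripts, which rest on few counts.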
